A study of Drosophila melanogaster with 25 samples.

Results

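RNA levels were compared between imaginal wing discs and eye-brain complexes of wild-type Drosophila melanogaster larvae. The 3 wing disc libraries and the 2 eye-brain libraries were chosen by their tissue and genotype labels, and are 5 of the 25 libraries of the series. All 5 came from w1118 larvae of the third instar (L3), stand in the same count table and were sequenced on the same model of sequencer, per the labels and the series' design text. The series itself asks how RNA levels respond to changes in the activity of fat (ft), which codes for a very large cadherin. An eye-brain complex is commonly dissected as the larval brain with the eye-antennal discs still attached, so it mixes a nervous system with another imaginal disc. The labels give neither the sex nor the number of larvae in a library, nor their age within the third instar. Each library is labelled as a separate replicate, but nothing states that the replicates came from separate cultures or days. The p-values therefore measure the spread between these libraries, which may be partly technical.

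A pair of other groups gave the same tissue contrast in separate libraries. They are 3 FtICD wing disc and 3 FtICD eye-brain libraries of the same table, from a ubi-Gal4; UAS-FtICD-3xFLAG stock, in which a broadly active driver expresses a tagged intracellular domain of Fat. A further 3 wild-type eye-brain libraries, also w1118, belong to the ft null set. They stand in another table and were sequenced on another model (NovaSeq X Plus), and are called the second eye-brain set below.

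The wing disc is a sac of epithelium that grows during larval life and everts at metamorphosis to form the wing, the hinge and the notum, the back of the thorax. Its pouch, hinge and notum are laid out by selector genes such as vestigial (vg) and by the secreted signals Hedgehog, Dpp and Wingless, and muscle precursors lie on its notal side. The eye disc is specified by the retinal determination genes, and neurons form there behind a moving furrow. The larval brain holds neural stem cells, called neuroblasts, with their young progeny, working larval neurons and glia, and the ring gland, which makes the moulting hormone ecdysone, is attached to it. Both tissues contain imaginal epithelium that uses the same signals, so a difference between them mixes tissue identity with the share of each cell type. In such bulk samples fewer cells of a type and less RNA per cell cannot be told apart.

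Of 10467 genes tested, 5486 (52.4%) differed between the tissues at an adjusted p under 0.05. Of these, 2345 (22.4% of genes tested) were higher in wing discs and 3141 (30.0%) were lower. The differences were uneven in size, the larger ones being mostly lower in wing discs. At least 2-fold differences numbered 831 higher and 2242 lower, at least 8-fold ones 121 and 1456, and at least 32-fold ones 28 and 1028. For 5484 of the 5486 called genes, and for 71.7% of all genes tested, every wing disc library lay on the same side of both eye-brain libraries. This holds for each called gene named below, so overlap is mentioned only for genes not called. Of the genes lower in wing discs, 320 held no count in any of the 3 wing disc libraries, whereas 9 of the genes higher in wing discs held none in both eye-brain libraries. The median log2 fold change of all genes tested was -0.06. A positive log2 fold change means a higher level in wing discs, and each is given ± its standard error (SE). A gene near 0 in wing discs passed the filter on low counts through its eye-brain level alone, so list counts are descriptions and are set against the shares just given. Levels are CPM, counts scaled to the same library total, listed in the order of the replicate numbers. CPM is not divided by gene length, so levels are compared between tissues and not between genes.

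**Figure D1:**
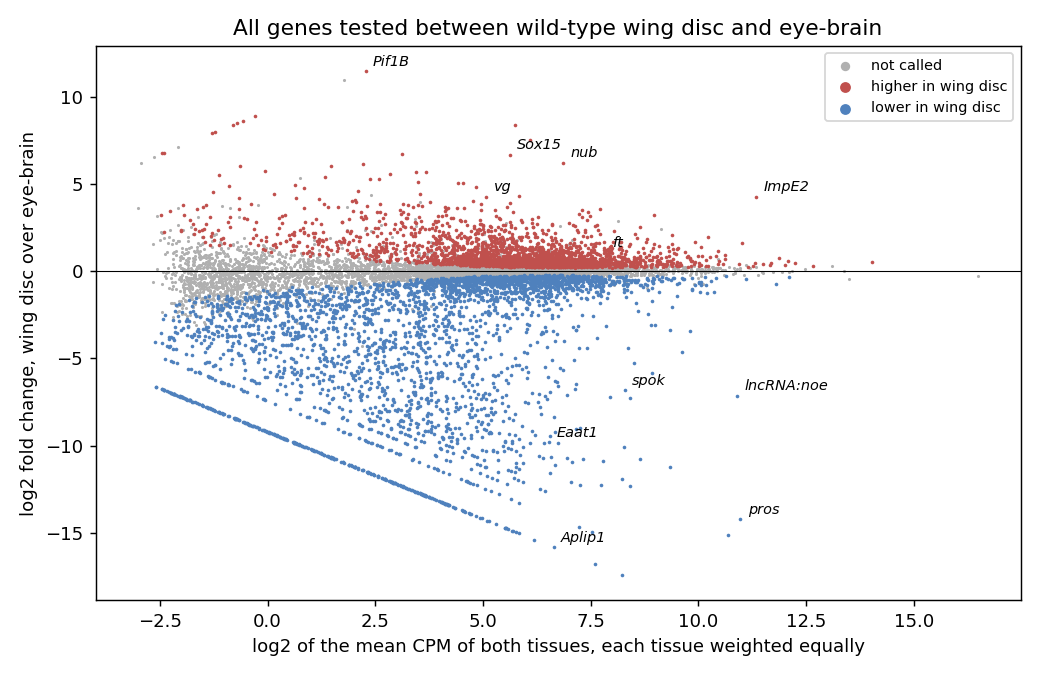
All 10467 genes tested, by mean level (x axis, log2 CPM) and by log2 fold change, wing disc over eye-brain (y axis). Red points are the 2345 genes higher in wing discs, blue points the 3141 lower in wing discs and grey points the genes not called. The straight lower edge holds genes with 0 counts in all wing disc libraries, whose fitted value depends on a small added prior count.

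The libraries held 36547182, 30886102 and 54256669 counts in wing discs and 32970570 and 30361047 in eye-brain complexes. Ribosomal RNA took 11.03 ± 0.159% of counts in wing discs (SD, n = 3) and 13.2 ± 2.61% in eye-brain complexes (SD, n = 2). The eye-brain libraries detected more genes, with 10436 and 10432 genes at 10 or more counts against 9171, 9042 and 9488 in wing discs. A two-sided exact permutation test of either measure gave p = 0.10, the smallest that 3 against 2 libraries allow. The eye-brain libraries also stood apart from the second eye-brain set. Of the genes tested, 595 were at least 4-fold lower in them than in the second set, where they exceeded 5 CPM. Their median log2 level was 4.63, 4.24 and 3.61 in the wing discs, 3.60 and 3.38 in the eye-brain complexes compared here, and 6.42 to 6.43 in the second set. In FtICD libraries it ran the other way, at 3.26, 2.92 and 2.87 in wing discs and 4.72, 4.28 and 5.70 in eye-brain complexes. These 595 genes made up 9.51% of the genes higher in wing discs and 5.38% of those lower. What set these libraries apart was not tested, nor was its part in the comparisons with FtICD below. A gene of this kind is given with its level in the second set, and some counts are also given over the 8145 genes whose level in the eye-brain sets agreed within 2-fold. Over those genes, 1762 were higher and 2433 lower in wing discs, 51.5% in all. The kit does not mark strand, so reads from overlapping exons of neighbouring genes cannot be told apart. Among genes named below this concerns VAChT with ChAT, Zyx with apolpp, Pif1B with Pif1A, sad with CG6962, Sb with CG5903, tkv with TpnC25D, twi with CG9897, ex with crq, repo with CG7156, Syx1A with eIF4EHP, Dlish with CG10934, ITP with CG4622, elav with arg, hpo with Rep, Myc with CG12535, Irk1 with cnc, br with Mur2B and lncRNA:roX1 with ec. Antisense or other non-coding genes overlap the exons of Ald, hth, robo2, Lsp2, sev, twi, pros, dpn, Wnt10, Mmp2, grh, Diap1, trh, Myc, ds and Imp.

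Markers of the labelled tissues mostly followed the labels. The summed level of 7 wing disc epithelium markers (vg, nub, rn, ap, zfh2, pnr, wg) was 1187, 1237 and 1088 CPM in wing discs against 278 and 307 CPM in eye-brain complexes, and each was higher in wing discs. Eye disc markers summed to 38.4, 29.2 and 21.5 CPM in wing discs against 190.2 and 163 CPM in eye-brain complexes, with 6 of 8 lower in wing discs. Not called were eya and so, which like sev stood far below their levels in the second eye-brain set, given below. Neuronal markers summed to 35.2, 25.7 and 18.1 CPM in wing discs against 911 and 1016 CPM in eye-brain complexes, glial markers to 10.7, 7.72 and 11.2 CPM in wing discs against 337 and 338 CPM in eye-brain complexes and neuroblast markers to 37.6, 44.1 and 34.7 CPM in wing discs against 188 and 221 CPM in eye-brain complexes. All 7 neuronal, 4 glial and 4 neuroblast markers were lower in wing discs. The 4 ring gland markers summed to 8.35, 5.85 and 21.5 CPM in wing discs against 518 and 291 CPM in eye-brain complexes, the high wing disc value being that of replicate 3. Markers of wing disc myoblasts, 106, 109 and 119.6 CPM in wing discs against 37.8 and 38.5 CPM in eye-brain complexes, were higher in wing discs in 3 of 3 cases. Fat body markers did not separate the tissues, at 14.8, 59.2 and 24.5 CPM in wing discs against 64.4 and 7.01 CPM in eye-brain complexes, and neither did salivary gland markers, at 31.9, 24.4 and 49.8 CPM in wing discs against 26.8 and 25.0 CPM in eye-brain complexes.

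**Figure D2:**
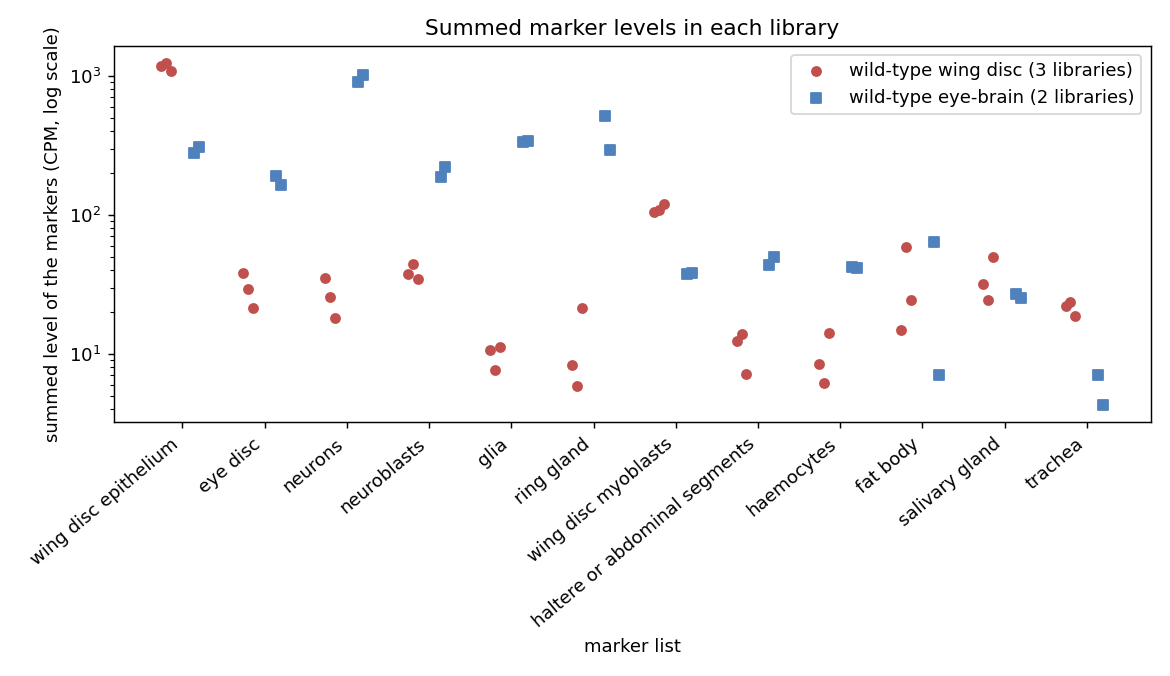
Summed CPM (y axis, log scale) of each fixed marker list (x axis) in each library, red circles for the 3 wing disc libraries and blue squares for the 2 eye-brain libraries. Wing disc epithelium, myoblast and trachea markers lie higher in every wing disc library, while eye disc, neuronal, neuroblast, glial and ring gland markers lie lower in every wing disc library.

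The selector genes of the wing were mostly higher in wing discs. Of 18 genes of the wing selector and pouch list, 15 were higher in wing discs and none was lower, with a median log2 fold change of 1.52. The gene vg (FBgn0003975, chromosome 2R, 12884201 to 12899385) codes for the cofactor that makes a disc cell a wing cell, and had 55.8, 85.6 and 51.5 CPM in wing discs against 3.03 and 3.63 CPM in eye-brain complexes (log2 fold change 4.27 ± 0.29, adjusted p = 7.5e-05). Its DNA-binding partner sd was high in both tissues, at 452, 489 and 472 CPM in wing discs against 319 and 319 CPM in eye-brain complexes (log2 fold change 0.56 ± 0.08, adjusted p = 0.0016). Both genes were thus higher in every wing disc library, vg by the larger fold. The neighbouring POU-factor genes nub (FBgn0085424, chromosome 2L, 12587625 to 12628135) and pdm2 (FBgn0004394, chromosome 2L, 12657165 to 12686306), act in the pouch and hinge. The level of nub was 271, 247 and 167 CPM in wing discs against 3.92 and 2.12 CPM in eye-brain complexes, and that of pdm2 43.9, 39.0 and 48.2 CPM in wing discs against 3.64 and 3.47 CPM in eye-brain complexes. Their log2 fold changes were 6.24 ± 0.37 and 3.62 ± 0.15 (adjusted p = 4.3e-05 and 1.1e-05). In the second eye-brain set nub was at 11.7, 13.4 and 13.7 CPM, below all wing disc libraries as well.

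The dorsal selector ap, a LIM-homeodomain gene, was at 332, 345 and 358 CPM in wing discs against 72.8 and 85.3 CPM in eye-brain complexes (log2 fold change 2.13 ± 0.10, adjusted p = 2.0e-05). The T-box genes Doc1, Doc2 and Doc3, neighbours on chromosome 3L that mark the lateral pouch and hinge, were all higher in wing discs. Doc1 had 41.9, 42.8 and 43.1 CPM in wing discs against 7.47 and 6.27 CPM in eye-brain complexes. Doc2 had 23.9, 20.3 and 27.1 CPM in wing discs against 5.59 and 2.96 CPM in eye-brain complexes. Doc3 had 69.0, 69.5 and 78.9 CPM in wing discs against 13.4 and 13.6 CPM in eye-brain complexes, and the log2 fold changes of Doc1, Doc2 and Doc3 were 2.63, 2.47 and 2.42. The Dpp-responsive gene salr was also higher, at 142, 157 and 142 CPM in wing discs against 58.1 and 60.8 CPM in eye-brain complexes (log2 fold change 1.31 ± 0.08, adjusted p = 5.7e-05). All 5 of these genes agreed within 2-fold between the eye-brain sets. For 8 of the 18 members the eye-brain level here was over 2-fold below that of the second set, and some of these calls rest on it. The pouch gene rn was at 40.6, 42.8 and 31.3 CPM in wing discs against 17.0 and 16.3 CPM in eye-brain complexes, but at 88.8, 94.7 and 90.8 CPM in the second set (log2 fold change -1.14 against it). Likewise bs, an intervein gene, was at 18.5, 18.3 and 12.4 CPM in wing discs against 4.51 and 2.83 CPM in eye-brain complexes and at 42.9, 38.1 and 38.6 CPM in the second set (log2 fold change -1.17 against it). Against the second set, 9 members were higher and 6 lower in wing discs, where 75.3% of 10119 genes tested were called, 36.4% higher and 38.9% lower. Among the 10 members that agreed between the sets 8 were higher and none lower.

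Of 17 hinge and notum genes, 12 were higher and 3 lower in wing discs (median 1.22). With the second eye-brain set the split was closer, 8 higher and 6 lower. Sox15, a Sox-family gene of the wing hinge, had 92.3, 93.9 and 106 CPM in wing discs against 1.51 and 0.354 CPM in eye-brain complexes (log2 fold change 6.69 ± 0.46, adjusted p = 7.8e-05). The GATA-factor gene pnr, which specifies the dorsal-most notum, had 66.4, 72.2 and 68.3 CPM in wing discs against 13.7 and 10.2 CPM in eye-brain complexes (log2 fold change 2.53 ± 0.15, adjusted p = 4.1e-05). Of the Iroquois genes, which specify the lateral notum, caup had 114.72, 131 and 112 CPM in wing discs against 27.6 and 23.8 CPM in eye-brain complexes (log2 fold change 2.21 ± 0.12, adjusted p = 2.7e-05). The neighbouring ara had 111, 113 and 55.0 CPM in wing discs against 6.02 and 6.08 CPM in eye-brain complexes (log2 fold change 3.94 ± 0.37, adjusted p = 2.9e-04), lowest in wing disc replicate 3. The third, mirr, had 88.5, 106 and 68.4 CPM in wing discs against 33.1 and 42.3 CPM in eye-brain complexes (log2 fold change 1.22 ± 0.21, adjusted p = 0.0037). In the second eye-brain set caup was at 23.7, 25.7 and 26.2 CPM, ara at 29.6, 29.97 and 28.8 CPM and mirr at 104.01, 102 and 103 CPM, so that of the 3 genes only caup agreed within 2-fold. Against that set the log2 fold change of mirr was -0.11. The zinc-finger gene tsh, a proximal determinant, was at 223, 222 and 218 CPM in wing discs against 83.5 and 88.7 CPM in eye-brain complexes (log2 fold change 1.36 ± 0.07, adjusted p = 2.9e-05), while hth, its partner in proximal identity, did not pass, at 1237, 1559.9 and 980.1 CPM in wing discs against 1102 and 1231 CPM in eye-brain complexes (log2 fold change 0.11 ± 0.19, adjusted p = 0.66), the groups overlapping. The second set had hth at 391, 425 and 502 CPM, and against it hth passed as higher (log2 fold change 1.64). A clear exception was Lim1, a LIM-homeodomain gene, with 0, 0.131 and 0.147 CPM in wing discs against 72.7 and 109 CPM in eye-brain complexes (log2 fold change -9.80 ± 0.46, adjusted p = 1.7e-05).

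Patterning signals were present in both tissues and mostly higher in the wing. Of 30 compartment and morphogen genes, 18 were higher and 6 lower in wing discs, with a median of 0.85 (14 and 9 against the second set). The ligand gene wg had 155, 164 and 160.1 CPM in wing discs against 45.0 and 40.8 CPM in eye-brain complexes (log2 fold change 1.90 ± 0.08, adjusted p = 1.3e-05), and Notum, the gene of a secreted enzyme that inactivates Wingless, 36.8, 38.8 and 39.1 CPM in wing discs against 9.60 and 8.87 CPM in eye-brain complexes (log2 fold change 2.05 ± 0.11, adjusted p = 2.9e-05). The Notch ligand gene Ser had 174, 149 and 181 CPM in wing discs against 28.0 and 23.8 CPM in eye-brain complexes (log2 fold change 2.70 ± 0.13, adjusted p = 2.0e-05). Its level in the second eye-brain set was 68.2, 65.6 and 66.9 CPM. In the Dpp pathway the receptor gene tkv had 431, 440.3 and 443 CPM in wing discs against 205 and 189 CPM in eye-brain complexes (log2 fold change 1.15 ± 0.08, adjusted p = 8.5e-05). The feedback inhibitor gene Dad had 163, 177 and 166 CPM in wing discs against 85.6 and 68.1 CPM in eye-brain complexes (log2 fold change 1.13 ± 0.12, adjusted p = 4.0e-04). The brk gene, a repressor of Dpp targets, did not pass and its groups overlapped, at 59.7, 61.2 and 63.4 CPM in wing discs against 64.1 and 41.8 CPM in eye-brain complexes (log2 fold change 0.22 ± 0.18, adjusted p = 0.35). The posterior-compartment signal gene hh had 62.4, 65.7 and 67.1 CPM in wing discs against 23.0 and 16.0 CPM in eye-brain complexes (log2 fold change 1.74 ± 0.17, adjusted p = 3.1e-04).

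The posterior selectors en and inv, neighbours on chromosome 2R, varied within the wing disc group, at 94.9, 50.7 and 25.0 CPM for en and 36.7, 38.2 and 22.2 CPM for inv, with the lowest value in replicate 3 for each. Both were lower in eye-brain complexes, at 5.99 and 3.99 CPM for en (log2 fold change 3.51 ± 0.62, adjusted p = 0.0040) and 3.21 and 2.22 CPM for inv (log2 fold change 3.57 ± 0.33, adjusted p = 2.6e-04). In the second set en was at 24.2, 21.5 and 20.7 CPM and inv at 29.4, 34.9 and 32.7 CPM, and inv did not pass against that set (log2 fold change 0.11). Other signals were lower in wing discs. The Wnt ligand gene Wnt4 had 19.3, 24.5 and 17.6 CPM in wing discs against 100.3 and 136 CPM in eye-brain complexes (log2 fold change -2.53 ± 0.19, adjusted p = 9.8e-05). Its relative Wnt10 had 0.602, 0.556 and 0.441 CPM in wing discs against 7.22 and 10.3 CPM in eye-brain complexes (log2 fold change -4.04 ± 0.30, adjusted p = 9.6e-05). The EGF-receptor pathway genes rho, of the protease that releases the ligand Spitz, and aos, of a secreted inhibitor, were lower at log2 fold changes of -2.65 ± 0.09 and -1.33 ± 0.11 (adjusted p = 6.1e-06 and 1.8e-04). The homeobox gene ct was also lower, at 51.5, 69.5 and 43.6 CPM in wing discs against 274 and 365 CPM in eye-brain complexes (log2 fold change -2.54 ± 0.22, adjusted p = 1.9e-04).

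The Hox genes give segments their identity. Of 8, Antp alone was higher in wing discs and the other 7 were lower (median log2 fold change -4.71). Antp (FBgn0260642, chromosome 3R, 6896253 to 6999228), the Hox gene of the thoracic segment that bears the wing, had 140.4, 177 and 126 CPM in wing discs against 53.4 and 54.9 CPM in eye-brain complexes (log2 fold change 1.45 ± 0.16, adjusted p = 5.0e-04). The genes of head segments were nearly silent in wing discs. Dfd held 0 counts over the 3 wing disc libraries and 15.8 and 15.0 CPM in eye-brain complexes, at least 626-fold lower when 3 counts in the whole group are taken as the floor. Likewise pb held 0 counts in wing discs and 7.75 and 8.36 CPM in eye-brain complexes, at least 326-fold lower. Scr was at 0, 0.360 and 0.0368 CPM in wing discs against 2.84 and 4.44 CPM in eye-brain complexes (log2 fold change -4.93 ± 1.02, adjusted p = 0.0078), and lab at 0.876, 0.752 and 0.386 CPM in wing discs against 2.56 and 1.54 CPM in eye-brain complexes (log2 fold change -1.63 ± 0.47, adjusted p = 0.028). The call of lab was lost without wing disc replicate 2 or 3 or either eye-brain replicate, and that of Scr without eye-brain replicate 2.

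In the bithorax complex Ubx, the gene that makes the haltere disc differ from the wing disc, had 11.9, 13.1 and 6.75 CPM in wing discs against 25.3 and 28.8 CPM in eye-brain complexes (log2 fold change -1.36 ± 0.28, adjusted p = 0.0082), a call lost without eye-brain replicate 2. Without that library 4 Hox genes were called lower. The abdominal genes were lower still, abd-A at 0.438, 0.785 and 0.294 CPM in wing discs against 10.8 and 11.4 CPM in eye-brain complexes (log2 fold change -4.49 ± 0.41, adjusted p = 2.4e-04). Abd-B was at 0.0274, 0 and 0.110 CPM in wing discs against 7.62 and 9.87 CPM in eye-brain complexes (log2 fold change -7.22 ± 0.63, adjusted p = 2.1e-04). In FtICD libraries the same contrast gave a log2 fold change of 1.47 ± 0.14 for Antp, and 6 of the other 7 genes were lower in wing discs, where 30.3% of genes tested were lower. The exception was Ubx at -0.43 ± 0.29 (adjusted p = 0.25). In the second eye-brain set lab was at 12.3, 11.2 and 11.2 CPM, Scr at 18.5, 19.1 and 25.5 CPM and abd-A at 31.7, 35.8 and 41.4 CPM, all above the eye-brain complexes compared here.

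**Figure D3:**
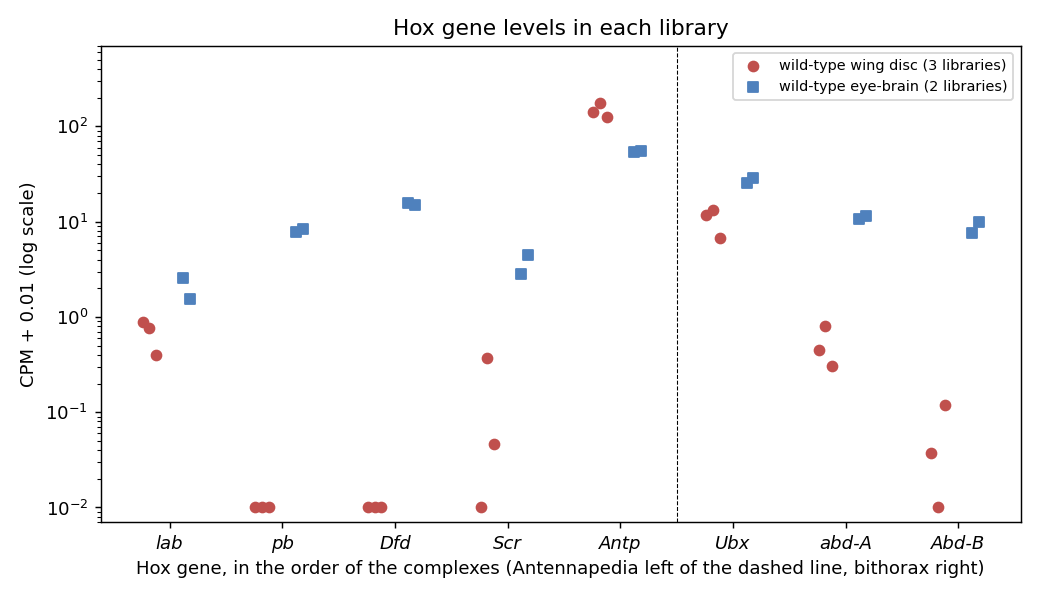
Levels of the 8 Hox genes (y axis, CPM plus 0.01, log scale) in the order of the Antennapedia and bithorax complexes (x axis), red circles for the 3 wing disc libraries and blue squares for the 2 eye-brain libraries. Antp is the one gene whose wing disc values lie above its eye-brain values, and pb and Dfd lie at 0 counts in each wing disc library.

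Several genes that specify the eye were near 0 in wing discs. Of 9 retinal determination genes, 6 were lower and 1 higher in wing discs (median -3.01). The Pax6 gene toy (FBgn0019650, chromosome 4, 989725 to 1007922) had 0.137, 0.229 and 0.0735 CPM in wing discs against 263 and 274 CPM in eye-brain complexes (log2 fold change -10.94 ± 0.22, adjusted p = 1.9e-06). Its relative on chromosome 4, ey (FBgn0005558, chromosome 4, 697689 to 721173), had 0.192, 0.0327 and 0.239 CPM in wing discs against 52.8 and 48.8 CPM in eye-brain complexes (log2 fold change -8.20 ± 0.37, adjusted p = 1.6e-05). The pair dan and danr code for nuclear factors that act with ey. The level of dan was 0.0274, 0.163 and 0.294 CPM in wing discs against 48.4 and 37.4 CPM in eye-brain complexes (log2 fold change -7.90 ± 0.49, adjusted p = 5.0e-05). That of danr was 0.876, 0.981 and 1.60 CPM in wing discs against 80.3 and 73.3 CPM in eye-brain complexes (log2 fold change -6.02 ± 0.25, adjusted p = 1.1e-05). The gene dac, which also acts in legs and in the brain, had 4.38, 4.81 and 3.02 CPM in wing discs against 29.9 and 35.2 CPM in eye-brain complexes (log2 fold change -3.01 ± 0.23, adjusted p = 1.1e-04), with 257, 229 and 257 CPM in the second eye-brain set. The homeobox gene Optix had 13.03, 14.1 and 12.4 CPM in wing discs against 42.6 and 41.0 CPM in eye-brain complexes (log2 fold change -1.66 ± 0.11, adjusted p = 5.9e-05). The genes eya and so, whose products act as a complex, did not pass. The level of eya was 16.0, 8.63 and 2.85 CPM in wing discs against 21.0 and 19.1 CPM in eye-brain complexes (log2 fold change -1.14 ± 0.62, adjusted p = 0.17), and without wing disc replicate 1 it passed as lower. That of so was 3.01, 1.41 and 0.717 CPM in wing discs against 2.44 and 2.25 CPM in eye-brain complexes (log2 fold change -0.46 ± 0.59, adjusted p = 0.55), the groups overlapping. In the second eye-brain set eya was at 299.7, 247 and 284 CPM and so at 60.1, 58.2 and 55.3 CPM. Against that set their log2 fold changes were -4.81 and -4.997, and both passed. The exception in direction was toe, a Pax gene, at 25.2, 10.50 and 6.73 CPM in wing discs against 2.56 and 2.76 CPM in eye-brain complexes (log2 fold change 2.40 ± 0.60, adjusted p = 0.016), a call lost without either eye-brain replicate. In the second set it was at 13.8, 17.6 and 15.0 CPM (log2 fold change -0.019 against it).

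All 16 photoreceptor differentiation genes were lower in wing discs, with a median log2 fold change of -4.20. The proneural gene ato, which founds the first photoreceptor of each facet, had 0.328, 0.262 and 0.386 CPM in wing discs against 20.2 and 13.4 CPM in eye-brain complexes (log2 fold change -5.65 ± 0.30, adjusted p = 2.8e-05). The zinc-finger gene gl, needed for photoreceptor identity, had 0.301, 0.392 and 0.460 CPM in wing discs against 37.0 and 18.8 CPM in eye-brain complexes (log2 fold change -6.15 ± 0.38, adjusted p = 4.9e-05), and sev, the receptor tyrosine kinase of the last photoreceptor, 0.520, 0.131 and 0.129 CPM in wing discs against 26.9 and 21.4 CPM in eye-brain complexes (log2 fold change -6.55 ± 0.54, adjusted p = 1.6e-04). The level of sev was 146, 131 and 142 CPM in the second eye-brain set. The smallest difference was in Fas2, an adhesion gene at 404, 430.1 and 430.5 CPM in wing discs against 583 and 566 CPM in eye-brain complexes (log2 fold change -0.45 ± 0.08, adjusted p = 0.0038). Of 9 proneural genes of sense organs, 7 were tested, with 2 higher and 4 lower in wing discs. The higher ones were the neighbours ac and sc, which found the bristles of the wing and notum. The level of ac was 14.6, 11.8 and 15.3 CPM in wing discs against 5.06 and 3.47 CPM in eye-brain complexes (log2 fold change 1.70 ± 0.25, adjusted p = 0.0017), and that of sc 61.9, 61.8 and 59.9 CPM in wing discs against 25.4 and 27.1 CPM in eye-brain complexes (log2 fold change 1.22 ± 0.09, adjusted p = 8.0e-05). Their neighbour ase, which marks neural precursors and neuroblasts, was lower, at 1.61, 4.28 and 2.46 CPM in wing discs against 55.5 and 66.0 CPM in eye-brain complexes (log2 fold change -4.46 ± 0.37, adjusted p = 1.6e-04). The same held for l(1)sc, at 0.0547, 0.131 and 0.239 CPM in wing discs against 6.82 and 7.11 CPM in eye-brain complexes (log2 fold change -5.51 ± 0.48, adjusted p = 2.1e-04). The gene sens, of bristle precursors, did not pass and its groups overlapped, at 7.66, 9.25 and 9.40 CPM in wing discs against 8.15 and 9.77 CPM in eye-brain complexes (log2 fold change -0.03 ± 0.19, adjusted p = 0.91).

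Neuronal genes gave the widest gap. All 24 pan-neuronal and synaptic genes tested were lower in wing discs, with a median log2 fold change of -7.46, and so were 13 of 15 transmitter genes (median -8.18), all 29 transmitter receptor genes tested (median -8.73), 20 of 22 ion channel genes (median -7.71) and all 29 neuropeptide genes tested (median -9.31). With the genes at 0 counts set to their bound, the medians of receptors and neuropeptides were -8.05 and -7.89. The vesicle fusion gene nSyb had 0.0547, 0.0654 and 0.147 CPM in wing discs against 189 and 148 CPM in eye-brain complexes (log2 fold change -10.70 ± 0.26, adjusted p = 2.8e-06). The complexin gene cpx, of a protein that clamps vesicle fusion, had 0.109, 0 and 0.0552 CPM in wing discs against 244 and 283 CPM in eye-brain complexes (log2 fold change -12.08 ± 0.30, adjusted p = 2.8e-06). In contrast elav, the classical neuronal marker, was still read in wing discs, at 34.6, 24.7 and 17.4 CPM in wing discs against 209.9 and 311 CPM in eye-brain complexes (log2 fold change -3.35 ± 0.31, adjusted p = 2.5e-04). The fusion gene Syx1A, which all cells use to secrete, was at 282, 349.8 and 259 CPM in wing discs against 481 and 559 CPM in eye-brain complexes (log2 fold change -0.81 ± 0.15, adjusted p = 0.0046), and did not pass against the second set (log2 fold change 0.13).

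Genes of several transmitters were at or near 0 in wing discs. The vesicular acetylcholine transporter gene VAChT held 0 counts in wing discs and 45.4 and 56.4 CPM in eye-brain complexes, at least 2057-fold lower. VGlut, its glutamate counterpart, had 0, 0 and 0.0184 CPM in wing discs against 95.6 and 105 CPM in eye-brain complexes (12178-fold lower in pooled CPM, 95% exact interval 2185 to 481062 from 1 count in wing discs, adjusted p = 1.9e-06). Such intervals cover counting error only. Gad1, which makes GABA, had 0, 0.0981 and 0 CPM in wing discs against 177 and 171 CPM in eye-brain complexes (7054-fold lower in pooled CPM, 95% exact interval 2413 to 34213 from 3 counts in wing discs, adjusted p = 4.7e-06). An exception was ple, which makes dopamine in neurons and, in epidermis, precursors for cuticle tanning. It had 0.712, 49.6 and 5.94 CPM in wing discs against 7.32 and 17.7 CPM in eye-brain complexes, so that wing disc replicate 2 stood far above the other libraries, and it did not pass (log2 fold change 0.58 ± 1.42, adjusted p = 0.76). Among receptors nAChRalpha2 held 0 counts in wing discs and 77.0 and 106 CPM in eye-brain complexes, at least 3688-fold lower, and the GABA receptor gene Rdl had 0, 0.0981 and 0 CPM in wing discs against 159 and 163 CPM in eye-brain complexes (6531-fold lower in pooled CPM, 95% exact interval 2234 to 31677 from 3 counts in wing discs, adjusted p = 4.9e-06). The 2 ion channel genes higher in wing discs were Irk1, an inward-rectifying potassium channel gene at 88.8, 91.3 and 88.1 CPM in wing discs against 47.7 and 40.5 CPM in eye-brain complexes (log2 fold change 1.02 ± 0.10, adjusted p = 2.7e-04), and ppk, a sensory sodium channel gene at 1.67, 1.44 and 1.69 CPM in wing discs against 0.525 and 0.611 CPM in eye-brain complexes (log2 fold change 1.49 ± 0.35, adjusted p = 0.012). The call of ppk was lost without either eye-brain replicate.

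Many neuropeptide genes are read in few brain cells, and 12 of 29 neuropeptide genes held no count in any wing disc library. Of 31 listed, 29 were tested. The insulin-like gene Ilp3 held 0 counts in wing discs and 45.0 and 51.2 CPM in eye-brain complexes, at least 1945-fold lower. The short neuropeptide F gene sNPF held 0 counts in wing discs and 80.4 and 106 CPM in eye-brain complexes, at least 3759-fold lower. Ptth, whose hormone drives the ring gland, had 0.383, 0.523 and 0.533 CPM in wing discs against 8.92 and 10.48 CPM in eye-brain complexes (log2 fold change -4.32 ± 0.27, adjusted p = 4.9e-05). The smallest difference was in ITP, of an ion transport peptide, at 55.8, 60.5 and 51.1 CPM in wing discs against 100.2 and 101 CPM in eye-brain complexes (log2 fold change -0.85 ± 0.09, adjusted p = 5.0e-04). Against the second eye-brain set ITP did not pass (log2 fold change -0.18).

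Recognition molecules that wire neurons split between neuron-specific families and broadly used genes. Of 45 axon guidance and adhesion genes, 28 were lower and 5 higher in wing discs, with a median of only -0.90. Families grouped by symbol after the values were seen were more uniform. Of the dpr genes, cell-surface proteins that pair with DIP partners at synapses, 20 of 21 were lower, as were all 9 DIP genes, all 14 beat genes and 7 of 8 side genes, and none of these was higher. The lowest was dpr7, with 0 counts in wing discs and 135 and 157 CPM in eye-brain complexes, at least 5908-fold lower. The Slit receptor gene robo3 held 0 counts in wing discs and 74.1 and 66.5 CPM in eye-brain complexes, at least 2849-fold lower. Its relative robo2 was higher in wing discs, at 167, 142 and 105 CPM in wing discs against 54.7 and 68.1 CPM in eye-brain complexes (log2 fold change 1.17 ± 0.21, adjusted p = 0.0047). The second eye-brain set had robo2 at 338, 307 and 330.5 CPM, and the direction against that set was reversed (log2 fold change -1.12). Fas3, of an epithelial adhesion protein, was higher in wing discs, at 966, 1017 and 898 CPM in wing discs against 500.4 and 461 CPM in eye-brain complexes (log2 fold change 0.999 ± 0.10, adjusted p = 2.9e-04), while Nrg, of a neuronal and junctional adhesion protein, did not pass, at 497, 479.8 and 507 CPM in wing discs against 472 and 521 CPM in eye-brain complexes (log2 fold change -0.00 ± 0.08, adjusted p = 0.98).

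Genes of neural stem cells and their progeny followed. Of 21, 18 were lower and 1 higher in wing discs (median -5.51). The homeodomain gene pros (FBgn0004595, chromosome 3R, 11328480 to 11407627), which enters the nucleus of the daughter cell to stop division, reached 0.137, 0.229 and 0.239 CPM in wing discs against 3244 and 4824 CPM in eye-brain complexes (log2 fold change -14.24 ± 0.31, adjusted p = 2.1e-06). The zinc-finger gene nerfin-1, which keeps young neurons from reverting, had 0, 0 and 0.0184 CPM in wing discs against 335 and 400.2 CPM in eye-brain complexes (44583-fold lower in pooled CPM, 95% exact interval 8001 to 1761000.0 from 1 count in wing discs, adjusted p = 1.9e-06), and wor, a Snail-family neuroblast gene, 0.493, 0.458 and 0.441 CPM in wing discs against 71.5 and 101 CPM in eye-brain complexes (log2 fold change -7.53 ± 0.21, adjusted p = 3.3e-06). The gene erm of intermediate progenitors held 0 counts in wing discs and 65.1 and 57.1 CPM in eye-brain complexes, at least 2479-fold lower. The bHLH repressor gene dpn of neuroblasts was lower by less, at 35.4, 39.2 and 31.7 CPM in wing discs against 58.8 and 51.8 CPM in eye-brain complexes (log2 fold change -0.64 ± 0.12, adjusted p = 0.0052), and did not pass against the second set (log2 fold change -0.10). The single higher member was grh, an epithelial and neuroblast factor gene, at 405, 482 and 383 CPM in wing discs against 181 and 176 CPM in eye-brain complexes (log2 fold change 1.24 ± 0.12, adjusted p = 3.2e-04).

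Of 9 listed genes that time neuroblast output, 7 were tested, 3 were lower in wing discs and none was higher. The early-neuron gene chinmo had 30.5, 36.8 and 20.9 CPM in wing discs against 579 and 678 CPM in eye-brain complexes (log2 fold change -4.42 ± 0.24, adjusted p = 3.2e-05). Another, mamo, had 94.9, 141 and 82.4 CPM in wing discs against 701 and 1111 CPM in eye-brain complexes (log2 fold change -3.09 ± 0.29, adjusted p = 2.7e-04), and the ecdysone-induced Eip93F had 0.192, 0.392 and 0.257 CPM in wing discs against 87.5 and 121 CPM in eye-brain complexes (log2 fold change -8.56 ± 0.26, adjusted p = 4.1e-06). The RNA-binding protein genes Imp and Syp, which mark young and old neuroblasts, did not pass and their groups overlapped. The level of Imp was 292, 338 and 182 CPM in wing discs against 262 and 302 CPM in eye-brain complexes (log2 fold change -0.06 ± 0.25, adjusted p = 0.86), and that of Syp 1616, 2112 and 1395 CPM in wing discs against 1691 and 2054 CPM in eye-brain complexes (log2 fold change -0.13 ± 0.19, adjusted p = 0.59). Of 11 tested Notch targets of the E(spl) complex, 6 were lower and none higher, but 3 were lower and 5 higher against the second eye-brain set. E(spl)mgamma-HLH, which neuroblasts use, had 8.65, 11.9 and 10.8 CPM in wing discs against 126 and 109 CPM in eye-brain complexes (log2 fold change -3.49 ± 0.15, adjusted p = 1.3e-05), while its neighbours E(spl)mbeta-HLH and E(spl)m3-HLH did not pass. E(spl)mbeta-HLH was at 50.9, 54.2 and 61.3 CPM in wing discs against 50.3 and 54.8 CPM in eye-brain complexes (log2 fold change 0.08 ± 0.11, adjusted p = 0.58), and E(spl)m3-HLH at 93.0, 101 and 103.51 CPM in wing discs against 88.6 and 91.6 CPM in eye-brain complexes (log2 fold change 0.14 ± 0.08, adjusted p = 0.19). Both passed as higher against the second set, at log2 fold changes of 0.80 and 1.48. There Imp also passed as higher (0.78).

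Glial genes were lower in wing discs in 12 of 14 cases (median -5.73). The glial master gene repo had 0.192, 0.0981 and 0.165 CPM in wing discs against 32.2 and 18.8 CPM in eye-brain complexes (log2 fold change -7.33 ± 0.37, adjusted p = 2.3e-05). The astrocyte gene alrm had 0, 0 and 0.0735 CPM in wing discs against 102 and 91.0 CPM in eye-brain complexes (log2 fold change -11.39 ± 0.39, adjusted p = 5.8e-06), and the glutamate transporter gene Eaat1 0.192, 0.229 and 0.202 CPM in wing discs against 186 and 186 CPM in eye-brain complexes (log2 fold change -9.80 ± 0.11, adjusted p = 8.1e-07). The 2 members higher in wing discs were bnb, at 173, 169 and 134 CPM in wing discs against 72.1 and 53.9 CPM in eye-brain complexes (log2 fold change 1.33 ± 0.17, adjusted p = 0.0011), and Gli, a septate junction gene at 83.9, 77.9 and 90.9 CPM in wing discs against 45.2 and 44.7 CPM in eye-brain complexes (log2 fold change 0.91 ± 0.09, adjusted p = 4.1e-04). The second eye-brain set had bnb at 260.5, 241 and 258 CPM, above the wing disc values (log2 fold change -0.56 against it).

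**Figure D4:**
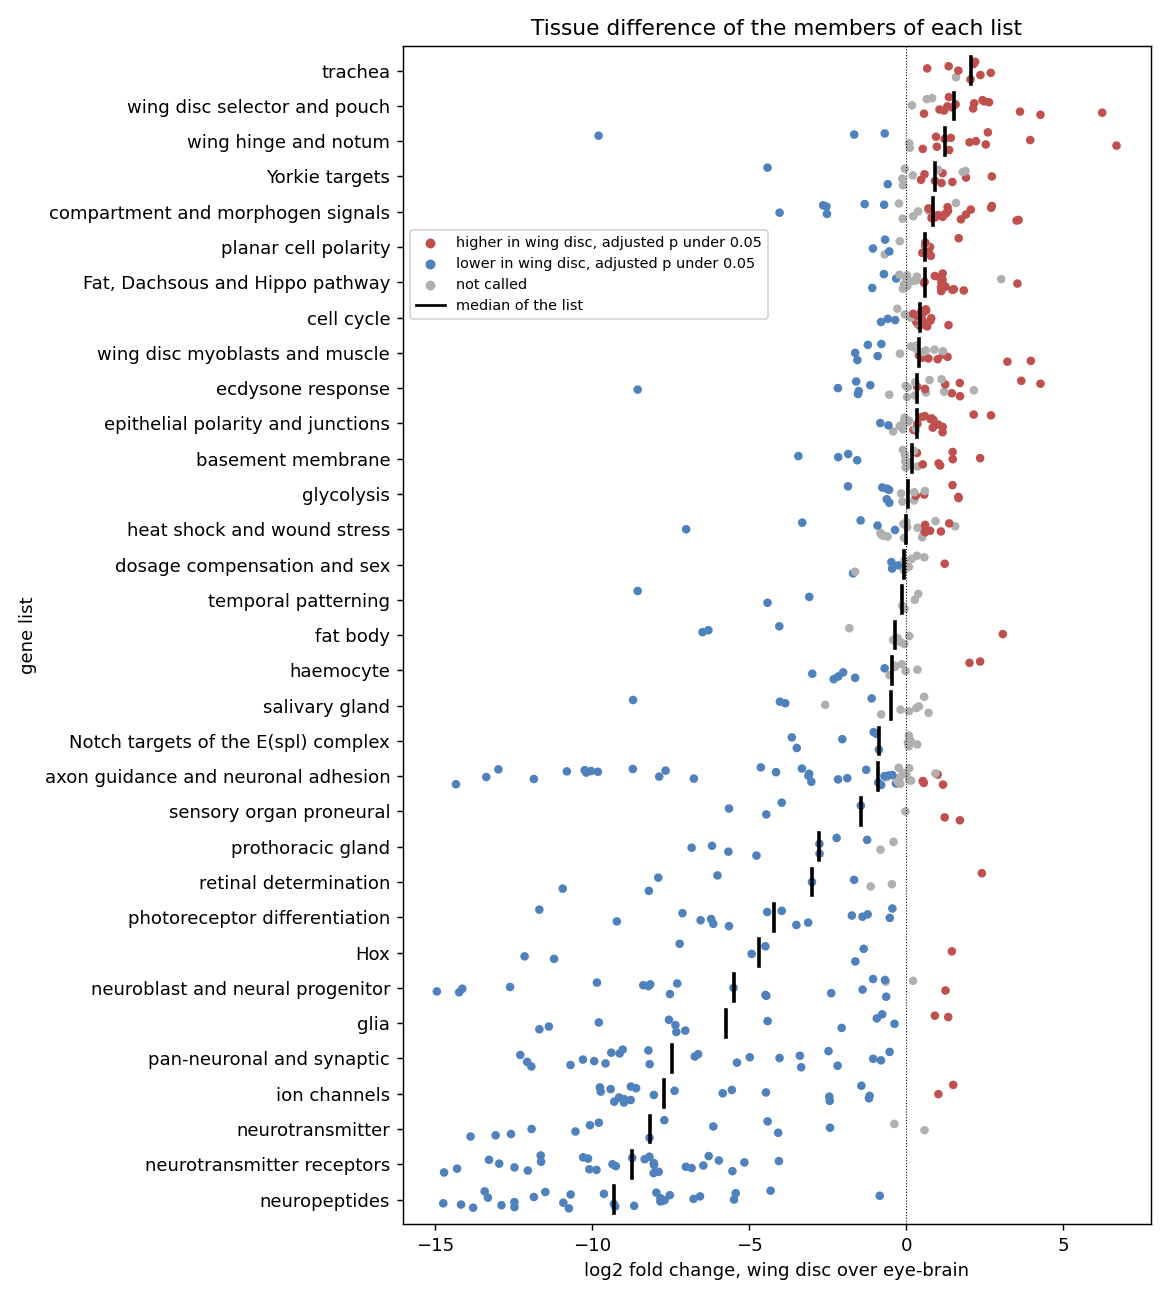
Log2 fold change, wing disc over eye-brain (x axis), of each tested member of the 33 gene lists (y axis, ordered by median). Red points were higher and blue points lower in wing discs at an adjusted p under 0.05, grey points were not called, and black bars are list medians, which run from -9.31 for neuropeptides to 2.04 for trachea.

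The ring gland showed in the eye-brain libraries. Of 10 prothoracic gland genes, 8 were lower in wing discs and none was higher (median -2.77). The ecdysone synthesis gene spok had 0, 0 and 15.5 CPM in wing discs against 718 and 534 CPM in eye-brain complexes (log2 fold change -6.84 ± 1.76, adjusted p = 0.018). The gene sad, of a later step, had 1.31, 1.77 and 9.65 CPM in wing discs against 289.8 and 165 CPM in eye-brain complexes (log2 fold change -5.67 ± 0.83, adjusted p = 0.0019). Wing disc replicate 3 carried the highest wing disc level of both, and without it spok had no count in wing discs and sad a log2 fold change of -7.22. The call of spok was lost without either eye-brain replicate.

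Of 25 genes that respond to ecdysone, 8 (32%) were higher and 6 (24%) lower in wing discs (median 0.34). These shares lie near the 22.4% higher and 30.0% lower of all genes tested. A large difference was that of ImpE2 (FBgn0001254, chromosome 3L, 3510974 to 3512681), an ecdysone-induced gene of everting imaginal discs, at 4177, 5949 and 4693 CPM in wing discs against 239 and 273 CPM in eye-brain complexes (log2 fold change 4.27 ± 0.20, adjusted p = 1.7e-05). Its relatives in name ImpE1 and ImpE3 are also induced in discs. The level of ImpE1 was 126, 195 and 147 CPM in wing discs against 49.9 and 82.6 CPM in eye-brain complexes (log2 fold change 1.24 ± 0.27, adjusted p = 0.0096), and it did not pass against the second eye-brain set (log2 fold change 0.20). That of ImpE3 was 61.3, 96.8 and 87.0 CPM in wing discs against 23.8 and 26.4 CPM in eye-brain complexes (log2 fold change 1.70 ± 0.21, adjusted p = 8.6e-04). Sb, of a membrane protease that discs need to evert, had 31.1, 47.9 and 23.1 CPM in wing discs against 1.98 and 3.41 CPM in eye-brain complexes (log2 fold change 3.66 ± 0.42, adjusted p = 6.6e-04). The early-response gene br did not pass, at 1435, 1563 and 1209.9 CPM in wing discs against 977 and 1356 CPM in eye-brain complexes (log2 fold change 0.27 ± 0.17, adjusted p = 0.25), nor did EcR, of the hormone receptor, at 131, 124 and 121 CPM in wing discs against 124 and 123 CPM in eye-brain complexes (log2 fold change 0.02 ± 0.07, adjusted p = 0.80). Both passed as lower against the second set (-0.56 and -0.77). Some genes that follow the hormone pulse varied widely within each tissue and did not pass. The nuclear receptor gene Hr4 had 44.5, 168 and 68.8 CPM in wing discs against 13.5 and 67.6 CPM in eye-brain complexes (log2 fold change 1.21 ± 0.80, adjusted p = 0.25), and the zinc-finger gene Blimp-1 31.6, 70.7 and 57.7 CPM in wing discs against 3.27 and 20.8 CPM in eye-brain complexes (log2 fold change 2.15 ± 0.76, adjusted p = 0.054). Both were highest in replicate 2 of each tissue, and Blimp-1 passed as higher without wing disc replicate 1 or eye-brain replicate 2. In FtICD libraries ImpE2 did not differ in the same way, at 0.15 ± 0.58 (adjusted p = 0.84), and that difference between genotypes passed its own test (-4.17 ± 0.80, adjusted p = 0.012). The labels give no age within L3, and stage and tissue cannot be told apart here.

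Cuticle genes were among those higher in wing discs. The Cpr genes code for chitin-binding cuticle proteins and were grouped by symbol after the values were seen. Of 70, 33 were tested, and of these 14 were higher and 3 lower in wing discs (median 0.56). Cpr64Aa had 163, 124 and 36.3 CPM in wing discs against 0.617 and 0 CPM in eye-brain complexes (log2 fold change 8.40 ± 1.13, adjusted p = 0.0013), lowest of the wing discs in replicate 3. Cpr49Ag had 11.7, 13.1 and 17.7 CPM in wing discs against 0.494 and 0.0964 CPM in eye-brain complexes (log2 fold change 5.56 ± 0.58, adjusted p = 4.4e-04). Pif1B had 11.1, 7.65 and 10.3 CPM in wing discs and 0 counts in eye-brain complexes, at least 209-fold higher in these libraries. Against the second eye-brain set, where it was at 0, 0 and 0.783 CPM, its log2 fold change was 5.39. In FtICD libraries Pif1B did not pass (log2 fold change 2.26 ± 1.23, adjusted p = 0.17). Drip, an aquaporin gene, had 51.5, 67.9 and 54.7 CPM in wing discs against 4.04 and 3.99 CPM in eye-brain complexes (log2 fold change 3.85 ± 0.17, adjusted p = 1.4e-05), and pio, which codes for an apical matrix protein, was higher at a log2 fold change of 2.14 ± 0.16 (adjusted p = 1.0e-04).

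The Fat and Hippo pathway, the subject of the series, was read in both tissues, and more of its genes were higher than lower in wing discs. Of 29 tested genes, 15 were higher and 3 lower in wing discs (median 0.58), and 14 were higher and 9 lower against the second eye-brain set. The cadherin gene ft itself (FBgn0001075, chromosome 2L, 4198404 to 4221796) had 304, 339.7 and 286 CPM in wing discs against 138 and 149 CPM in eye-brain complexes (log2 fold change 1.11 ± 0.10, adjusted p = 2.7e-04), a mean of 309.8 ± 27.4 CPM in wing discs (SD, n = 3) and 144 ± 8.02 CPM in eye-brain complexes (SD, n = 2). Its ligand gene ds had 218, 205 and 224 CPM in wing discs against 63.7 and 57.8 CPM in eye-brain complexes (log2 fold change 1.83 ± 0.09, adjusted p = 1.9e-05), and fj, the kinase gene that tunes their binding, 330.4, 312 and 211 CPM in wing discs against 105 and 101 CPM in eye-brain complexes (log2 fold change 1.47 ± 0.20, adjusted p = 0.0014). Downstream of Fat, the myosin gene d had 245, 224 and 264 CPM in wing discs against 99.1 and 72.5 CPM in eye-brain complexes (log2 fold change 1.51 ± 0.16, adjusted p = 4.1e-04), and its partner Dlish 135, 125 and 128 CPM in wing discs against 57.2 and 51.7 CPM in eye-brain complexes (log2 fold change 1.25 ± 0.08, adjusted p = 6.8e-05). Against the second eye-brain set, where ds was at 163, 171 and 183 CPM, the log2 fold changes of ft, ds, fj and d were 1.68, 0.44, 1.28 and 0.83.

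The core kinase gene hpo did not pass, at 90.2, 90.0 and 94.8 CPM in wing discs against 91.5 and 88.1 CPM in eye-brain complexes (log2 fold change 0.03 ± 0.07, adjusted p = 0.75). Its downstream kinase gene wts did not pass either, at 34.6, 47.7 and 32.05 CPM in wing discs against 38.3 and 41.8 CPM in eye-brain complexes (log2 fold change -0.07 ± 0.18, adjusted p = 0.77), and the groups of both overlapped. Both passed as lower against the second set (-0.23 and -0.41). The upstream genes ex and crb act at the apical membrane. The level of ex was 200.1, 196 and 203 CPM in wing discs against 90.7 and 93.6 CPM in eye-brain complexes (log2 fold change 1.12 ± 0.07, adjusted p = 5.3e-05), and that of crb 139.6, 132 and 150.4 CPM in wing discs against 67.1 and 59.3 CPM in eye-brain complexes (log2 fold change 1.15 ± 0.10, adjusted p = 1.7e-04). Against the second eye-brain set both were still higher but by less, at 0.43 and 0.28. The coactivator gene yki had 98.6, 88.5 and 27.3 CPM in wing discs against 7.90 and 4.40 CPM in eye-brain complexes (log2 fold change 3.53 ± 0.64, adjusted p = 0.0045), with the lowest wing disc level in replicate 3. It was at 45.7, 48.0 and 44.7 CPM in the second eye-brain set, against which it did not pass (log2 fold change 0.75), and went the other way in FtICD libraries (-2.60 ± 0.44, adjusted p = 0.0032). Lower in wing discs were dco, Rassf and Zyx, among which Zyx, of a LIM protein that acts with Fat, had 104.48, 114 and 101 CPM in wing discs against 165 and 185 CPM in eye-brain complexes (log2 fold change -0.72 ± 0.09, adjusted p = 9.8e-04). Its exons overlap those of apolpp, whose level is given below, and it did not pass against the second set (log2 fold change -0.15). Of 17 genes listed as Yorkie targets, 8 were higher and 2 lower (median 0.91), and the growth and survival targets Diap1 and Myc did not pass. Diap1 was at 456, 479 and 448 CPM in wing discs against 470.4 and 524 CPM in eye-brain complexes (log2 fold change -0.11 ± 0.09, adjusted p = 0.34), and Myc at 395, 408 and 363 CPM in wing discs against 392 and 459.9 CPM in eye-brain complexes (log2 fold change -0.13 ± 0.10, adjusted p = 0.33), though Myc passed as higher against the second set (1.34).

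Planar polarity genes gave 7 higher and 3 lower of 13 (median 0.59). The core genes fz, Vang and dgo were higher in wing discs, at log2 fold changes of 0.78 ± 0.10, 0.51 ± 0.07 and 0.71 ± 0.09, while the atypical cadherin gene stan, which also acts in axons and dendrites, was lower, at 42.2, 47.5 and 55.2 CPM in wing discs against 95.5 and 107 CPM in eye-brain complexes (log2 fold change -1.07 ± 0.13, adjusted p = 7.8e-04). Of 24 polarity and junction genes, 13 were higher and 2 lower (median 0.32), and 8 were higher and 7 lower against the second set. The E-cadherin gene shg had 326, 338 and 342 CPM in wing discs against 183 and 192 CPM in eye-brain complexes (log2 fold change 0.84 ± 0.08, adjusted p = 2.6e-04) and the claudin gene sinu 271, 278 and 272 CPM in wing discs against 164 and 156 CPM in eye-brain complexes (log2 fold change 0.77 ± 0.07, adjusted p = 2.9e-04). Against the second eye-brain set, where shg was at 404, 327 and 384 CPM, its log2 fold change was -0.029.

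Genes of dividing cells were modestly but widely higher in wing discs. Of 29 cell cycle genes, 20 were higher and 3 lower, with a median of 0.43. The replication clamp gene PCNA had 532, 476 and 546 CPM in wing discs against 342 and 313 CPM in eye-brain complexes (log2 fold change 0.66 ± 0.10, adjusted p = 0.0019). The mitotic kinase gene polo had 516, 488 and 514 CPM in wing discs against 294 and 291 CPM in eye-brain complexes (log2 fold change 0.79 ± 0.08, adjusted p = 3.4e-04), and the mitotic cyclin gene CycB 205, 193 and 206 CPM in wing discs against 116 and 121 CPM in eye-brain complexes (log2 fold change 0.76 ± 0.07, adjusted p = 3.3e-04). The 3 lower genes were stg, CycE and CycB3, among which stg, of the phosphatase that triggers mitosis, had 227, 217 and 216 CPM in wing discs against 412 and 359 CPM in eye-brain complexes (log2 fold change -0.81 ± 0.09, adjusted p = 5.6e-04), and 0.26 against the second eye-brain set. Glycolysis genes had no common direction, with 5 (31.2%) higher and 6 (37.5%) lower of 16, beside 22.4% and 30.0% of all genes tested. Tpi was higher at 665, 649.9 and 695 CPM in wing discs against 281 and 143 CPM in eye-brain complexes (log2 fold change 1.66 ± 0.28, adjusted p = 0.0032), while Ald was lower at 871, 781 and 866 CPM in wing discs against 1424 and 1166 CPM in eye-brain complexes (log2 fold change -0.63 ± 0.11, adjusted p = 0.0045) and did not pass against the second set (log2 fold change -0.08).

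Other families were grouped by symbol after the values were seen. Of 73 mitochondrial ribosomal protein genes, 27 were higher and 1 lower in wing discs. Of 87 cytosolic ones 17 (19.5%) were higher, close to the 22.4% of all genes tested, and 1 lower. With the second eye-brain set 60 mitochondrial and 82 cytosolic ones were higher, and 1 and 2 lower. In contrast 16 of 19 genes of the vacuolar proton pump, which acidifies synaptic vesicles and other organelles, were lower and none higher (median -0.51). Against the second set 8 of them were lower and 2 higher. Among 395 genes annotated by symbol as long non-coding RNAs, 127 (32.2%) were lower and 37 (9.37%) higher, beside 30.0% and 22.4% of all genes tested. Of these lncRNA:CR43283 had 0.0821, 0 and 0.147 CPM in wing discs against 2997 and 3615 CPM in eye-brain complexes (log2 fold change -15.12 ± 0.42, adjusted p = 3.3e-06), and lncRNA:noe 28.4, 32.7 and 20.3 CPM in wing discs against 3159 and 4464 CPM in eye-brain complexes (log2 fold change -7.14 ± 0.28, adjusted p = 9.2e-06). Both were thus abundant in eye-brain complexes.

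Genes of other cell types were measured as well. Of 23 myoblast and muscle genes tested, 8 were higher and 5 lower in wing discs (median 0.40), and 13 were higher without eye-brain replicate 1. The gene twi, which marks adult muscle precursors, had 28.7, 29.98 and 37.2 CPM in wing discs against 4.17 and 2.70 CPM in eye-brain complexes (log2 fold change 3.22 ± 0.25, adjusted p = 1.2e-04). Him, of the same precursors, had 22.9, 25.99 and 28.2 CPM in wing discs against 2.38 and 0.900 CPM in eye-brain complexes (log2 fold change 3.96 ± 0.41, adjusted p = 4.3e-04). Of 9 tracheal genes 8 were higher and none lower. They included trh, the master gene of airway cells, at 16.8, 18.0 and 15.1 CPM in wing discs against 4.41 and 3.67 CPM in eye-brain complexes (log2 fold change 2.04 ± 0.19, adjusted p = 2.5e-04), and vvl, which also acts in the wing, at 265, 342 and 227 CPM in wing discs against 58.0 and 50.5 CPM in eye-brain complexes (log2 fold change 2.36 ± 0.20, adjusted p = 1.6e-04). Haemocyte genes were lower in wing discs in 6 of 14 cases and higher in 2 (11 and 1 against the second set), with Hml at 2.35, 1.86 and 4.19 CPM in wing discs against 14.3 and 13.9 CPM in eye-brain complexes (log2 fold change -2.31 ± 0.35, adjusted p = 0.0022). Fat body genes of the larval serum proteins varied between libraries of the same tissue, Lsp2 being at 5.34, 22.3 and 12.6 CPM in wing discs against 29.2 and 3.47 CPM in eye-brain complexes (log2 fold change -0.29 ± 0.90, adjusted p = 0.81). Of 10 fat body genes tested 3 (30%) were lower in wing discs, beside 30.0% of all genes tested, and 1 was higher. Among the lower ones the lipoprotein gene apolpp did separate the tissues, at 2.03, 4.32 and 3.13 CPM in wing discs against 254 and 311 CPM in eye-brain complexes (log2 fold change -6.49 ± 0.29, adjusted p = 1.5e-05). Of 12 salivary gland genes tested 4 (33.3%) were lower, close to the 30.0% of all genes tested, and 1 was lower without eye-brain replicate 1. Of 18 basement membrane genes, 7 were higher and 4 lower (median 0.17), but 4 were higher and 10 lower against the second eye-brain set. The laminin gene LanA was higher, at 135, 129 and 146 CPM in wing discs against 70.6 and 59.2 CPM in eye-brain complexes (log2 fold change 1.08 ± 0.11, adjusted p = 3.4e-04), and Mmp2, of a matrix protease, lower, at 13.4, 17.8 and 13.8 CPM in wing discs against 151 and 174 CPM in eye-brain complexes (log2 fold change -3.44 ± 0.15, adjusted p = 1.3e-05).

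Stress and sex-linked RNAs varied within the tissues. Of 25 heat shock and wound genes, 6 (24%) were higher and 5 (20%) lower in wing discs, with a median of 0.00. Of all genes tested 22.4% were higher and 30.0% lower. The count of higher stress genes depended on single eye-brain libraries. The small heat shock gene Hsp26 had 349, 722 and 508 CPM in wing discs against 185 and 306 CPM in eye-brain complexes (log2 fold change 1.10 ± 0.35, adjusted p = 0.039), highest in wing disc replicate 2. Its call was lost without wing disc replicate 2 or 3 or either eye-brain replicate. Of 12 dosage compensation and sex genes, 4 (33.3%) were lower, close to the 30.0% of all genes tested, and 1 (8.33%) was higher. The number called lower depended on single eye-brain libraries. The male-specific RNA lncRNA:roX1, which coats the male X chromosome, was at 341, 249.8 and 95.4 CPM in wing discs against 554 and 930.0 CPM in eye-brain complexes (log2 fold change -1.70 ± 0.50, adjusted p = 0.031), and lncRNA:roX2 at 22.4, 19.1 and 5.87 CPM in wing discs against 28.5 and 68.9 CPM in eye-brain complexes (log2 fold change -1.63 ± 0.60, adjusted p = 0.061). The call of lncRNA:roX1 was lost without wing disc replicate 2 or either eye-brain replicate. The sexes in each library are not given, and the part of their mix in the results was not tested. The white gene w, deleted in part in w1118 flies, was at 0, 0.0654 and 0 CPM in wing discs against 7.72 and 2.31 CPM in eye-brain complexes (308-fold lower in pooled CPM, 95% exact interval 84.6 to 2555 from 2 counts in wing discs, adjusted p = 0.0011), and at 0.284, 0 and 0.120 CPM in the second eye-brain set. In FtICD libraries w held 26215 counts in wing discs and 21283 in eye-brain complexes and did not pass (log2 fold change 0.21 ± 0.16, adjusted p = 0.32). The source of the w reads in wild-type eye-brain complexes was not tested.

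By position, chromosome 4, the small dot chromosome, had the highest share of genes lower in wing discs of the 6 chromosome arms named here. Of 97 genes tested there, 49 (50.5%) were lower and 7 (7.22%) higher, with a median log2 fold change of -0.61. On the other chromosome arms 28.4% to 31.5% were lower and 21.2% to 24.7% higher. In FtICD libraries 34.7% of chromosome 4 genes were lower, beside 27.9% to 33.2% on the other arms, so that the excess was small there. With the second eye-brain set 50.0% were lower, beside 35.5% to 42.0% on the other arms. Gene size differed between the directions too. Only protein-coding genes were measured for this. Those lower in wing discs spanned a median of 4744 bases in the genome, those higher in wing discs 3077 bases and those not called 2310 bases. The 944 protein-coding genes at least 32-fold lower spanned a median of 6817 bases. These are descriptions of the annotated genes that were called, with no test.

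The FtICD libraries share no sample with the wild-type ones. Their tissue contrast was closer to that of wild type for genes lower in wing discs than for those higher. Of the wild-type calls tested in FtICD, 2880 of 3054 lower genes and 1819 of 2328 higher genes kept their direction. Of 10592 genes tested there, 5498 (51.9%) were called, 2288 (21.6%) higher and 3210 (30.3%) lower in wing discs. Genes called higher in both genotypes numbered 1433, which is 61.1% of the wild-type and 62.6% of the FtICD calls. Genes called lower in both numbered 2343, which is 74.6% and 73.0%. Across the 10173 genes tested in both, the log2 fold changes correlated with Pearson's r = 0.886 and Spearman's rho = 0.679. This is a description across genes, which are not independent. It takes in genes at 0 counts in wing discs, whose fitted values depend on a small added prior count. Called in opposite directions were 275 genes higher in wild-type wing discs and 15 lower. An example is UQCR-C2, of respiratory complex III. It had 191, 112 and 21.2 CPM in wing discs against 6.58 and 4.40 CPM in eye-brain complexes in wild type (log2 fold change 4.29 ± 0.97, adjusted p = 0.011), a call lost without either eye-brain replicate, and a log2 fold change of -5.05 ± 0.87 in FtICD. Its level in the second eye-brain set was 224, 218 and 226 CPM (log2 fold change -0.93 against it).

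**Figure D5:**
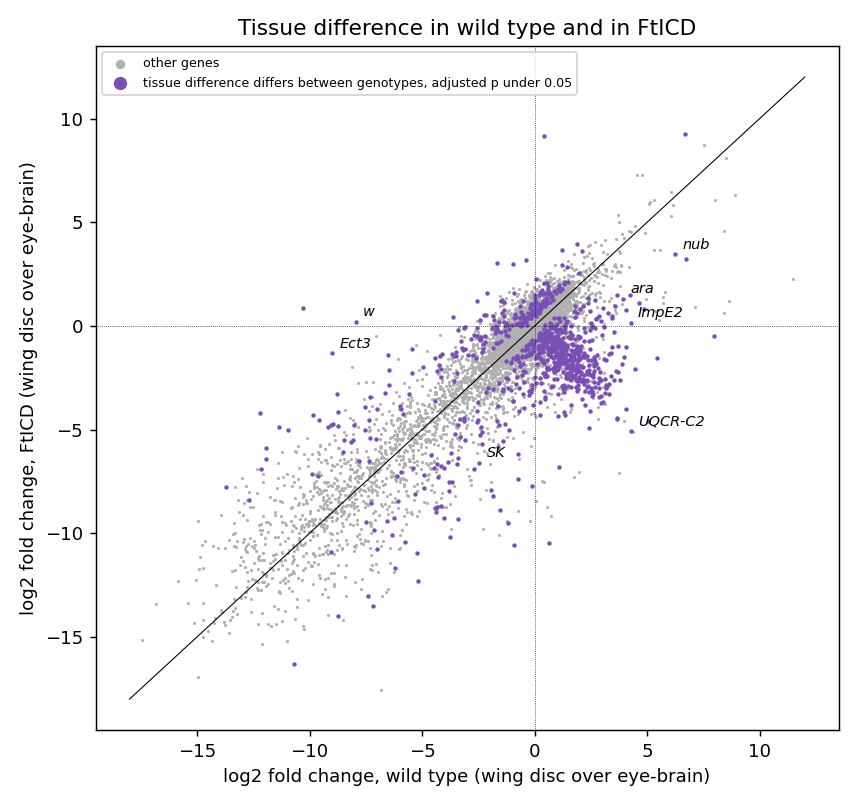
Log2 fold change, wing disc over eye-brain, in wild type (x axis) and in FtICD (y axis) for the 10173 genes tested in both. Purple points are genes whose tissue difference itself differed between the genotypes at an adjusted p under 0.05, and the line marks equal values.

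The difference of the tissue contrast between genotypes was tested as an interaction, which passed for 865 of 11440 genes (7.56%). It was positive for 228 of them and negative for 637. The smallest adjusted p was that of NaPi-III, a phosphate transporter gene, at 51.0, 46.0 and 47.0 CPM in wing discs against 418 and 411 CPM in eye-brain complexes in wild type (log2 fold change -3.11 ± 0.08, adjusted p = 2.9e-06) and a log2 fold change of -1.12 ± 0.09 in FtICD (interaction 1.94 ± 0.10, adjusted p = 6.1e-05). Ac3, an adenylyl cyclase gene, was lower in wild-type wing discs at 5.75, 4.74 and 4.47 CPM in wing discs against 48.0 and 56.6 CPM in eye-brain complexes (log2 fold change -3.39 ± 0.16, adjusted p = 1.7e-05), with a log2 fold change of -0.20 ± 0.09 in FtICD (interaction 3.14 ± 0.18, adjusted p = 6.6e-05). For SK, a calcium-activated potassium channel gene, the difference was larger in FtICD, -6.59 ± 0.24 against -2.46 ± 0.14 in wild type (interaction -4.18 ± 0.28, adjusted p = 1.6e-04). The count of such genes depended on single libraries. It was 467 without wild-type eye-brain replicate 1 and 326 without replicate 2. Among the wing selectors, vg, ap and the Doc genes were higher in FtICD wing discs too, at log2 fold changes of 4.53, 2.45, 2.87, 2.68 and 2.23. The difference of nub was smaller there, at 3.47 ± 0.25 (interaction -2.81 ± 0.44, adjusted p = 0.0050).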

How the data were processed

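RNA-seq values came from 2 deposited tables of 17208 genes and 25 columns. They hold deposited estimated counts for genes, uncorrected for depth, which the authors made with FastQC 0.10, Trimmomatic 0.33 and Salmon 1.80 per the submitters' processing notes. Settings are not given in the sources used here. Of nonzero values, 31.8% were not whole (tolerance 1e-06), and all were rounded. Libraries of 30361047 to 54256669 counts came from amplified cDNA, so bounds from counts cover counting error only.

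Wing disc (n = 3) was compared with eye-brain (n = 2) in R 4.3.3 with edgeR 4.0.16. Genes were filtered by filterByExpr (minimum count 10), scaled by TMM and tested by the two-sided quasi-likelihood F test with Benjamini-Hochberg adjustment over all genes tested, at 0.05. SE is the absolute log2 fold change over the square root of F. CPM used TMM-scaled totals, those of the second eye-brain set being scaled together with the other larval libraries. FtICD and second-set contrasts and the interaction were fitted likewise. A floor of 3 counts over the group bounded folds against 0. Replicates differed by far more than sampling noise (chi-square per degree of freedom of 52.5 to 107). On simulated data the wild-type comparison recovered 22.4% of 1.5-fold, 71.6% of 2-fold and 98.5% of 4-fold changes. The FtICD comparison recovered 4.48%, 34.3% and 95.5% of them. Far fewer genes were changed there than were called here. A gene that did not pass may thus still differ between the tissues. DESeq2 1.42.0 was an alternative. Coordinates are from BDGP6.54 (Ensembl 115), which placed 17083 genes, and exon overlaps of at least 50 bases are named.

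The comparison, its 33 gene lists and the families grouped by symbol were chosen with earlier results of these data known. Named genes are the extreme or most abundant called genes, up to 8 called members of a list in each direction, marker and identity genes and the top interaction genes. Blimp-1, Fas2, Hr4, ITP, Ptth, Syx1A, hpo, wts and yki were added after their values were seen.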

Additional observations from a re-analysis of the deposited data

Results flagged for a closer look

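The tissue difference itself differed between FtICD and wild-type libraries, by the interaction test of edgeR at an adjusted p under 0.05, for 29 of the 160 genes named in the text. Of all genes tested 7.56% passed. NaPi-III, Ac3 and SK were named for their small interaction p, and yki and Ptth after their values were seen. The 29 genes are thus a description, and their number cannot be weighed against that share. Values are the log2 fold change of wing disc over eye-brain in FtICD minus that in wild type, ± SE, and a negative value means that wing discs stood lower relative to eye-brain complexes in FtICD than in wild type.

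Among genes of wing, eye and segment identity these were nub at -2.81 ± 0.44, ara at -2.68 ± 0.43, inv at -2.68 ± 0.44, eya at -3.90 ± 0.99, abd-A at -2.40 ± 0.60 and lab at -4.27 ± 1.03, all negative, and Sox15 at 2.49 ± 0.58. For ara the log2 fold change was 1.30 ± 0.22 in FtICD and 3.94 ± 0.37 in wild type, for inv 0.94 ± 0.28 in FtICD and 3.57 ± 0.33 in wild type, and for eya -5.01 ± 0.64 in FtICD and -1.14 ± 0.62 in wild type. Of these 7 genes, nub, ara, inv, eya, abd-A and lab were over 2-fold lower in the wild-type eye-brain complexes than in the second eye-brain set. Among signals they were Wnt4 at -1.19 ± 0.31, hh at -1.05 ± 0.25 and aos at 1.02 ± 0.23. Among Fat, Hippo and growth genes they were yki at -6.17 ± 0.87, ex at 0.52 ± 0.12 and Myc at 0.85 ± 0.19. These differed between the eye-brain sets too. The level of yki was 7.90 and 4.40 CPM in the wild-type eye-brain complexes and 45.7, 48.0 and 44.7 CPM in the second set. Myc went the other way, at 392 and 460 CPM against 160, 164 and 177 CPM, and ex was lower than in the second set.

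Ecdysone-induced and apical genes included ImpE2 at -4.17 ± 0.80, ImpE1 at -2.50 ± 0.48, pio at -1.25 ± 0.21 and sinu at 0.64 ± 0.11. Neural, glial and channel genes were chinmo at 2.82 ± 0.36, Ptth at -2.40 ± 0.43, bnb at -1.43 ± 0.29, SK at -4.18 ± 0.28, Irk1 at 0.72 ± 0.16 and Ac3 at 3.14 ± 0.18. A value of -5.57 ± 0.89 for nSyb is no measured size, since nSyb held 0 counts in the 3 FtICD wing disc libraries and 12 in the wild-type ones. The others were stg at 0.83 ± 0.18, Tpi at -3.49 ± 0.77, UQCR-C2 at -9.38 ± 1.53, NaPi-III at 1.94 ± 0.10 and w at 8.15 ± 0.93. The value of w depends on the prior count too, since w held 2 counts in the 3 wild-type wing disc libraries and 26215 in the FtICD ones. Several of these genes also differed between the eye-brain sets. UQCR-C2 was at 6.58 and 4.40 CPM in the wild-type eye-brain complexes and 224, 218 and 226 CPM in the second set. The genes bnb, ImpE1, ImpE2, pio and Tpi were lower than in the second set as well, and stg and chinmo higher. The count of genes that passed was 326 to 973 when a library was left out, and the part of single libraries in these values was not tested gene by gene.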

How the results depend on the processing

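The count of 5486 genes was 5479 with the size factors of DESeq2, 5966 with DESeq2, 5503 without the filter, 5522 without ribosomal RNA, 5470 without rounding, 5314 in a joint fit of 4 groups and 7623 with the second eye-brain set, and no gene called in both changed direction except 467 with the second set. Leaving out a library gave 4054 to 5258. Correlations of deviations between wing disc and eye-brain libraries were -0.08 to 0.08, and 0.01 and 0.08 for libraries of the same replicate number. With 2 eye-brain libraries these values come in mirrored pairs, so they cannot tell whether replicate numbers pair the libraries. With a replicate block 4935 genes were called, with 4362 in FtICD and 684 for the interaction. Requiring a 2-fold difference left 3073 genes, 831 of them higher in wing discs. With the second set 3687 genes were higher, and the members called were 9 wing selectors, 8 polarity and junction genes and 4 basement membrane genes higher, and 3 E(spl) and 11 haemocyte genes lower.

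Over the 8145 genes that agreed within 2-fold between the eye-brain sets, a comparison added after seeing the data, members higher in wing discs were 8 wing selectors, 6 hinge and notum, 4 ecdysone response, 5 myoblast and muscle and 4 basement membrane genes. Those lower were 4 Hox, 9 photoreceptor, 15 pan-neuronal, 8 transmitter, 18 axon guidance and 2 salivary gland genes. These counts are smaller since fewer members are counted. Salivary gland genes called lower were also 2 with the replicate block and 1 in the joint fit, which gave 1 dosage compensation gene. Over the libraries left out, Hox genes lower ranged from 4 to 7, myoblast genes higher from 8 to 13, salivary gland genes lower from 1 to 4, stress genes higher from 1 to 7, dosage genes lower from 1 to 4 and interaction genes from 326 to 973. The causes were not tested.

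Of 160 genes named, 15 had the opposite sign with the second eye-brain set and passed with at least 1 of the eye-brain sets. Sign changes of genes that passed with neither set, such as Diap1, Syp and brk, are left out. The log2 fold changes of the 15 genes there were -0.77 for EcR, 0.78 for Imp, 1.34 for Myc, 0.13 for Syx1A, -0.93 for UQCR-C2, -0.56 for bnb, -0.56 for br, -1.17 for bs, -0.23 for hpo, -0.11 for mirr, -1.14 for rn, -1.12 for robo2, -0.029 for shg, 0.26 for stg and -0.019 for toe. Under the other alternatives no named gene changed sign while passing there or in the main comparison. With 3 and 2 libraries no rank or permutation test of 1 gene can pass, and counts near 0 limit the fold changes of genes silent in wing discs.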

Other observations

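Further families were grouped by symbol after the values were seen, and are set beside the 30.0% lower and 22.4% higher of all genes tested. All 7 synaptotagmin genes, calcium sensors of vesicle release, were lower in wing discs (median log2 fold change -8.18). Of 46 cytochrome P450 genes tested, 23 (50.0%) were lower and 6 higher (median -1.42).

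A pair of genes known only by annotation numbers was chosen after its values were seen. CG14989 and CG2269 held 0 counts in wing discs and were at least 24177-fold and 15821-fold lower there than in eye-brain complexes, where they had 598 and 596 CPM and 395 and 386 CPM. In the second eye-brain set 93 tested genes were at least 4-fold lower than in the eye-brain complexes compared here.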
